A study of Mus musculus with 18 samples.

Results

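The genes described here encode the proteins of the cytosolic ribosome. A microarray probe set (a group of short probes that reads 1 transcript) was taken when its platform annotation gave exactly 1 gene symbol and that symbol was an Rpl or Rps name, Rplp0, Rplp1, Rplp2 or Rpsa. The Rps6k kinases, pseudogenes and mitochondrial Mrp genes were left out. The rule took 105 of 45037 probe sets, which read 49 of 18193 genes with a probe set of a single symbol. Of these probe sets, 101 were bright enough to be tested, and they cover 48 genes. Another 110 probe sets list a ribosomal protein gene beside other genes and are no members, so Rplp1, Rpl3, Rpl5, Rpl10, Rpl10l, Rpl36a, Rpl36al and Rps27a have no member probe set.

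RNA came from 18 mouse melanoma allografts grown from 1 cell line, iNRAS-475, in which an NRAS transgene is expressed while doxycycline is given. The cells were placed in the skin of nude mice, hosts that lack mature T cells but keep their other blood, vessel and connective tissue cells, and all mice drank water with 2 mg/ml doxycycline until tumours measured 200 to 500 mm3 at 6 weeks. The NRAS-off group (6 tumours) then had doxycycline withdrawn for 4 days, so loss of NRAS and loss of doxycycline cannot be told apart. The MEK inhibitor group (6 tumours) received 100 mg/kg AZD6244 (selumetinib, an inhibitor of the kinases MEK1 and MEK2 below RAS) for 4 days, with no withdrawal of doxycycline given in the protocol, and the vehicle group (6 tumours) received vehicle. The labels give no NRAS allele, transactivator, host age or sex, no drug schedule and no duration of vehicle dosing. Each tumour is a separate biological replicate.

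The cytosolic ribosome has a small subunit, which decodes the messenger RNA, and a large subunit, which joins amino acids. Each subunit is built in the nucleolus from ribosomal RNA and ribosomal proteins, most of them needed in single copies per particle. Most mammalian ribosomal protein messenger RNAs begin with a 5′ terminal oligopyrimidine (TOP) tract, a C followed by an unbroken run of C and T, through which mTORC1 and the binding protein Larp1 control their translation. RAS signalling acts on ribosome production through ERK, RSK, mTORC1 and MYC, and growing tumour cells spend much of their transcription on it.

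The starts of the genes were searched for this tract. Promoter windows from RefSeq (GRCm38.p6) were matched by gene identifier for 43 of the 49 genes, on 15 chromosomes. A TOP start, a C followed by at least 4 C or T within 10 bases of an annotated start, was present in 27 of 43 member genes (62.8%), against 34.4% of all 27025 genes in the table. Exactly at an annotated start it was present in 8 of 43 member genes (18.6%), against 3.01% of all genes. The windows of 30 bases below, 10 before and 20 after the annotated start in 5′ to 3′ direction, are given because the results turn on these genes, and capitals mark the TOP tract where one was found.
Rps18 (chr17:33955646-33955675, minus strand): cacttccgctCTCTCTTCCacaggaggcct
Rps10 (chr17:27635225-27635254, minus strand): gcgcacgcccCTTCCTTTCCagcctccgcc
Rpl38 (chr11:114668570-114668599, plus strand): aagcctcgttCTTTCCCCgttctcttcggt
Rpl35 (chr2:39005112-39005141, minus strand): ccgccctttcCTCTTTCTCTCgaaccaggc
Rps6 (chr4:86857348-86857377, minus strand): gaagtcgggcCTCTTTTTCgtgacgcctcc
Rplp2 (chr7:141447641-141447670, plus strand): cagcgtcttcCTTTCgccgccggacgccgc
Rpsa (chr9:120127756-120127785, plus strand): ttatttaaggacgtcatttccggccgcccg
Rps4x (chrX:102189372-102189401, minus strand): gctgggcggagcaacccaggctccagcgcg
Rps28 (chr17:33824543-33824572, minus strand): cgcgtgcggtctcgcgagagcgaaagtgag
Rpl7l1 (chr17:46782637-46782666, minus strand): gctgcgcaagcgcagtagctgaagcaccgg
The first 6 carry a tract that begins at the annotated start, and the last 4 carry none within the window. A missing tract says only that these letters are not beside the annotated start.

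The arrays had median intensities of 72.3 to 78.5, and tumours of the same group correlated at 0.9832 to 0.9959 over the tested probe sets. The brightest Nras probe set read 1853 to 2009 (median 1914) in NRAS-off tumours, 1858 to 2229 (median 1953) in MEK inhibitor tumours and 2184 to 2524 (median 2291) in vehicle tumours. Whether these mouse probes read the transgene is not given in the labels, so they do not check it. Dusp6, a phosphatase gene induced by ERK, had log2 changes of -2.92 ± 0.14 in NRAS-off tumours and -1.79 ± 0.14 in MEK inhibitor tumours against vehicle (± SE, limma adjusted p = 1.61e-12 and 4.61e-09). Host cell markers moved with the groups. The summed intensity of 10 macrophage markers was 50194 to 68535 in NRAS-off tumours, 9145.1 to 21088 in MEK inhibitor tumours and 19483 to 30992 in vehicle tumours, and that of 8 fibroblast markers was 170620 to 199640, 114490 to 122210 and 72630 to 88810 in the same order. All 10 macrophage, 7 of 8 fibroblast and all 7 endothelial markers rose in NRAS-off tumours against vehicle, and 1 fibroblast marker fell. In MEK inhibitor tumours 0, 6 and 1 of them rose, and 8, 1 and 1 fell, in the same order. Of all genes 31.5% rose and 27.1% fell in NRAS-off tumours, and 23.8% and 20.5% in MEK inhibitor tumours. Of 8 melanocytic markers 5 were above the filter, 4 of which rose in NRAS-off and 2 in MEK inhibitor tumours. One library, NRAS-off replicate 2, had a keratinocyte marker sum of 30331, where the remaining 5 tumours of its group had 687.72 to 927.36. The part of these cell types in the results below was not tested, and in bulk tumours fewer cells of a type cannot be told apart from less RNA per cell.

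Ribosomal protein transcripts were among the brightest on the arrays. The median member ranked at percentile 99.58 of all probe sets by mean signal, and 68 of the 105 had a mean log2 signal of at least 12. Brightness depends on the probes, so signals are compared between groups and not between genes. The 4 members below the filter were the single Rps16 probe set and 1 probe set each of Rpl27a, Rps6 and Rpsa. The Rps16 probe set (Rps16 is a small subunit protein) read 12.7 to 14.2 (median 13.2) in NRAS-off tumours, 11.2 to 15.3 (median 13.8) in MEK inhibitor tumours and 12.8 to 17.5 (median 14.1) in vehicle tumours, near the floor of the array in all groups.

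In NRAS-off tumours most ribosomal protein transcripts were lower than in vehicle tumours, by amounts that were mostly small and differed between probe sets. Of 101 tested probe sets 80 fell (79.2%), 3 rose and 18 did not pass (limma, Benjamini-Hochberg adjusted p under 0.05 over all 33777 probe sets tested), while of all tested probe sets 26.7% fell and 28% rose (54.7% in either direction). The median log2 change was -0.23 (-14.7%) over the members and -0.01 over all tested probe sets. Read by the brightest probe set of each gene, 38 of 48 genes fell, 2 rose and 8 did not pass, against 27.1% of all 15005 tested genes that fell and 31.5% that rose. In 60 of the 101 probe sets the fall passed and every NRAS-off tumour lay below every vehicle tumour, which held for 17.3% of all tested probe sets. Without NRAS-off replicate 2, 77 probe sets and 37 genes fell. With the arrays normalized by cyclic loess, a setting added after the data were seen, 53 probe sets and 23 genes fell and 7 probe sets rose, with a median of -0.13. Of all tested probe sets 26.4% fell and 28.5% rose with that setting.

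For comparison at like brightness, among 950 probe sets with a mean log2 signal of at least 12 that list no ribosomal protein gene, 37.5% fell and 30.8% rose in NRAS-off tumours, with a median log2 change of -0.03. The 105 tested probe sets that list a ribosomal protein gene beside other genes gave 79 falls and 3 rises, with a median of -0.22. The bar plot of shares sets the members beside both backgrounds in all comparisons.

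**Figure D1:**
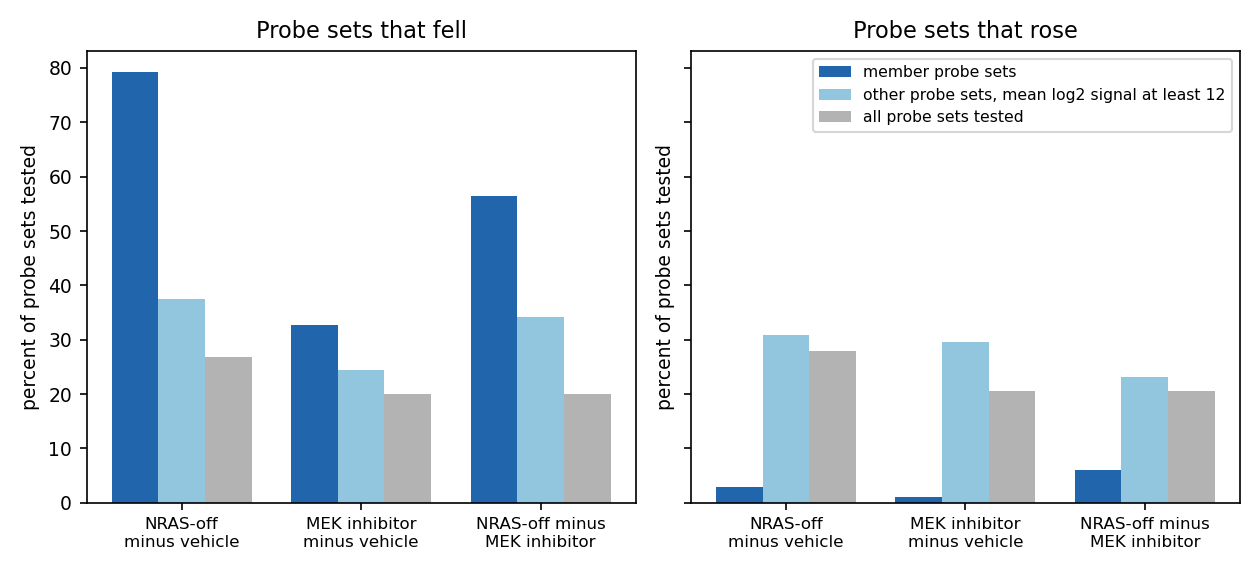
Percent of tested probe sets that fell (left) or rose (right) in each comparison, for member probe sets (n = 101), other probe sets with a mean log2 signal of at least 12 (n = 950) and all tested probe sets (n = 33777). In NRAS-off minus vehicle 79.2% of members fell, against 37.5% of other bright probe sets and 26.7% of all, and in MEK inhibitor minus vehicle 32.7%, 24.4% and 20.1% fell.

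All 20 tested large subunit genes fell in NRAS-off tumours, with log2 changes of -0.72 to -0.10 and a median of -0.23 at the brightest probe set. Rpl8, a protein beside the catalytic centre of the large subunit, had the largest of these falls among genes whose brightest probe set had a log2 signal of at least 12. Its intensity was 9372 to 10691 (median 9803) in NRAS-off tumours, 12244 to 14044 (median 13566) in MEK inhibitor tumours and 13982 to 15359.7 (median 14362) in vehicle tumours. All NRAS-off tumours lay below all tumours of both other groups, and the MEK inhibitor and vehicle tumours overlapped. The log2 change of Rpl8 was -0.55 ± 0.05 against vehicle (± SE, adjusted p = 1.26e-08) and -0.43 ± 0.05 against MEK inhibitor (adjusted p = 6.39e-07).

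Rpl14 and Rpl37, both structural proteins of the large subunit, were likewise low in NRAS-off tumours. Rpl14 read 246 to 299 (median 259) in NRAS-off tumours, 354 to 464 (median 392) in MEK inhibitor tumours and 343 to 476 (median 416) in vehicle tumours. Rpl37 read 935 to 1129.6 (median 1024) in NRAS-off tumours, 1382 to 1675 (median 1496) in MEK inhibitor tumours and 1452 to 1959 (median 1485) in vehicle tumours. For both, the NRAS-off tumours formed a low group of their own and the other 2 groups overlapped. Their log2 changes in NRAS-off against vehicle were -0.61 ± 0.08 and -0.59 ± 0.08 (adjusted p = 2.13e-06 and 3.04e-06). Their changes in MEK inhibitor tumours did not pass, at -0.06 (95% interval -0.22 to 0.11) and -0.03 (-0.20 to 0.13).

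Rpl12 was the large subunit gene that fell further under the MEK inhibitor than with NRAS off. It helps form the base of the stalk where translation factors bind. Its probe set read 240.2 to 328 (median 297) in NRAS-off tumours, 177 to 275 (median 226) in MEK inhibitor tumours and 447 to 543 (median 501) in vehicle tumours. Both treated groups lay below all vehicle tumours and overlapped each other. The log2 changes were -0.72 ± 0.09 in NRAS-off and -1.04 ± 0.09 in MEK inhibitor tumours against vehicle (adjusted p = 1.83e-06 and 4.51e-08). The difference between the treated groups was 0.31 ± 0.09, higher in NRAS-off (adjusted p = 0.0105).

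Rpl6, Rpl11 and, on its brightest probe set, Rpl27 fell by less. Rpl6 read 13594 to 15209.7 (median 14561) in NRAS-off tumours, 14954 to 16298 (median 15845) in MEK inhibitor tumours and 16826 to 18656 (median 17889) in vehicle tumours. Both treated groups lay below all vehicle tumours, with log2 changes of -0.31 ± 0.05 in NRAS-off and -0.19 ± 0.05 in MEK inhibitor tumours (adjusted p = 8.45e-06 and 0.00234). On its brightest probe set Rpl27 changed by -0.40 ± 0.05 in NRAS-off and -0.18 ± 0.05 in MEK inhibitor tumours, with no overlap of the 3 groups. All 3 Rpl27 probe sets fell in NRAS-off tumours, by log2 changes between -0.40 and -0.77, and only 1 fell in MEK inhibitor tumours. Rpl11, which binds Mdm2 and so joins ribosome assembly to p53, read 14153 to 14944 (median 14489) in NRAS-off tumours, 14913 to 16614 (median 15544) in MEK inhibitor tumours and 15257 to 17067 (median 16296) in vehicle tumours. Rpl11 was lower in every NRAS-off than in any vehicle tumour. Its log2 change was -0.17 ± 0.04 in NRAS-off tumours (adjusted p = 0.00259) and did not pass in MEK inhibitor tumours (95% interval -0.15 to 0.03). Rpl38, a large subunit protein known for a role in patterning the mouse skeleton, read 21667 to 23617 (median 22408) in NRAS-off tumours, 24218 to 25400.1 (median 25289) in MEK inhibitor tumours and 26204 to 27596 (median 26605) in vehicle tumours, with a log2 change of -0.25 ± 0.04 in NRAS-off tumours (adjusted p = 2.11e-05). Rpl7 fell on all 3 of its probe sets in NRAS-off tumours, by log2 changes of -0.25, -0.25 and -0.27, and on none in MEK inhibitor tumours.

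Rpl22 and Rpl39 each have a paralogue among the members. Rpl22, an RNA-binding protein at the surface of the large subunit, fell on 2 of 3 probe sets in NRAS-off tumours, by log2 changes of -0.19 ± 0.04 and -0.23 ± 0.07. On its dimmest probe set NRAS-off did not pass (-0.07, 95% interval -0.21 to 0.07) and the MEK inhibitor did (-0.18 ± 0.07, adjusted p = 0.0346), a call that ended when any of 5 single tumours was left out (adjusted p up to 0.0903). Rpl39, which lines the exit tunnel for the growing chain, read 93.2 to 106 (median 98.1) in NRAS-off tumours, 104 to 121 (median 112) in MEK inhibitor tumours and 103 to 121 (median 113) in vehicle tumours. NRAS-off tumours were the lowest and overlapped both other groups, and the log2 change against vehicle was -0.18 ± 0.05 (adjusted p = 0.00447).

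Of 20 tested small subunit genes 15 fell in NRAS-off tumours and 5 did not pass, with a median log2 change of -0.22. Rps6, the protein phosphorylated by the S6 kinases, read 346 to 439.7 (median 391) in NRAS-off tumours, 461 to 522 (median 485) in MEK inhibitor tumours and 499 to 662 (median 600.4) in vehicle tumours. The NRAS-off tumours lay below all others, and the MEK inhibitor and vehicle ranges overlapped. Its log2 changes were -0.57 ± 0.07 in NRAS-off and -0.27 ± 0.07 in MEK inhibitor tumours against vehicle (adjusted p = 4.78e-07 and 0.0027), and the treated groups differed by -0.30 ± 0.07 (adjusted p = 0.00106).

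Rps18, a protein of the small subunit head with a TOP tract of 9 bases in its window above, read 18681 to 20463 (median 19862) in NRAS-off tumours, 21592 to 23448 (median 22709.9) in MEK inhibitor tumours and 24477 to 26679 (median 25729.9) in vehicle tumours. These values are of the brightest of 6 Rps18 probe sets, on which none of the 3 groups overlapped. Their order was NRAS-off, MEK inhibitor, vehicle from low to high. The log2 changes on this probe set were -0.37 ± 0.04 and -0.18 ± 0.04 against vehicle in NRAS-off and MEK inhibitor tumours (adjusted p = 3.4e-07 and 0.00175). All 6 Rps18 probe sets fell in NRAS-off tumours and 3 of them in MEK inhibitor tumours. Rpsa, a small subunit protein also known as the laminin receptor, read 17806 to 20215 (median 18973) in NRAS-off tumours, 21540.5 to 24489 (median 23122) in MEK inhibitor tumours and 22571 to 24966 (median 23623) in vehicle tumours. NRAS-off tumours lay below both other groups, which overlapped over most of their range. Rpsa changed by -0.33 ± 0.05 in NRAS-off tumours (adjusted p = 6.27e-06) and did not pass in MEK inhibitor tumours (95% interval -0.13 to 0.06).

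Rps25, needed for initiation on some viral internal entry sites, fell in both treated groups. It read 755 to 903 (median 829.8) in NRAS-off tumours, 745 to 874 (median 771) in MEK inhibitor tumours and 1098 to 1197 (median 1147) in vehicle tumours. Every treated tumour lay below every vehicle tumour, with log2 changes of -0.46 ± 0.05 in NRAS-off and -0.55 ± 0.05 in MEK inhibitor tumours (adjusted p = 3.07e-07 and 9.55e-08). The treated groups did not differ past the threshold (difference 0.08, 95% interval -0.03 to 0.19). Rps4x, the X-linked form of Rps4, read 21257 to 22878 (median 22084) in NRAS-off tumours, 24122 to 26432 (median 25309) in MEK inhibitor tumours and 21744 to 26789 (median 26133) in vehicle tumours, where replicate 4 alone was in the NRAS-off range. On this brighter of its 2 probe sets Rps4x fell by a log2 change of -0.21 ± 0.05 in NRAS-off tumours (adjusted p = 0.00236). The dimmer one, which read 33.9 to 57.4 over all tumours, gave -0.16 and did not pass.

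The 5 small subunit genes that did not pass in NRAS-off tumours were Rps9, Rps27, Rps28, Rps29 and Rps3a1. The brightest Rps29 probe set read 30978 to 32745 (median 31739) in NRAS-off tumours, 31378 to 34109.6 (median 32843) in MEK inhibitor tumours and 31712 to 33386 (median 32956) in vehicle tumours, so that all 3 groups overlapped. Its log2 change was -0.05 (95% interval -0.13 to 0.04), and the other two Rps29 probe sets gave 0.03 and 0.03. Rps28 gave -0.01 (-0.12 to 0.10) on its brightest probe set, while the dimmest of its 3 fell by a log2 change of -0.16 ± 0.05 (adjusted p = 0.00893). Rps3a1 gave -0.04 (-0.13 to 0.05). Rps27, a zinc-binding protein of the small subunit, gave -0.03 (-0.13 to 0.07) in NRAS-off tumours and fell by a log2 change of -0.16 ± 0.05 in MEK inhibitor tumours (adjusted p = 0.0134). Rps9 gave -0.13 (-0.25 to -0.01, adjusted p = 0.056) with no overlap between NRAS-off and vehicle tumours, and the other two Rps9 probe sets fell.

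The stalk proteins recruit the translation factors that use GTP. Rplp0, the stalk protein that anchors the others, read 22349.5 to 23687 (median 22745) in NRAS-off tumours, 21221 to 26019 (median 24524) in MEK inhibitor tumours and 25499 to 26389.9 (median 25934) in vehicle tumours. NRAS-off tumours lay below all vehicle tumours and inside the MEK inhibitor range, with a log2 change of -0.18 ± 0.05 against vehicle (adjusted p = 0.0022). Rplp2, an acidic stalk protein, read 21853 to 23103 (median 22894) in NRAS-off tumours, 21746 to 25366 (median 23020.1) in MEK inhibitor tumours and 22754 to 24529.8 (median 23399) in vehicle tumours. All groups overlapped for Rplp2, and neither change against vehicle passed (95% intervals -0.14 to 0.05 in NRAS-off and -0.12 to 0.07 in MEK inhibitor tumours).

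**Figure D2:**
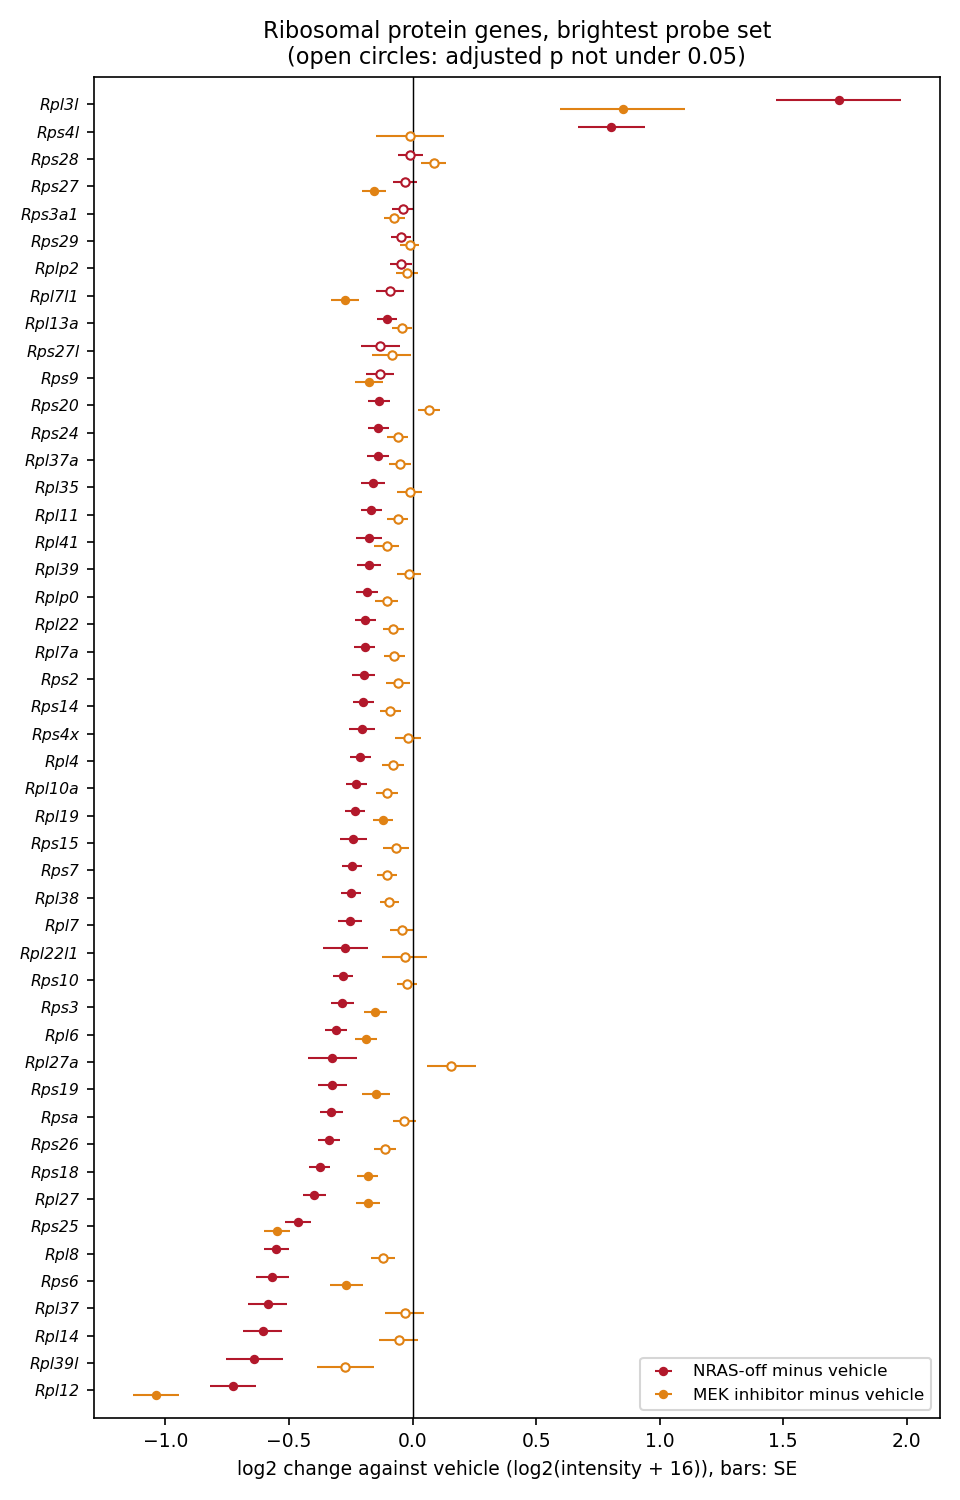
Log2 change against vehicle (horizontal axis, log2(intensity + 16), bars SE) for the 48 tested genes at their brightest probe set, ordered by the NRAS-off change, with open circles where adjusted p was not under 0.05. In NRAS-off tumours 38 genes fell and 2, Rpl3l and Rps4l, rose, and in MEK inhibitor tumours 12 fell and Rpl3l rose.

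The 6 paralogues, copies of ribosomal protein genes with tissue-restricted or specialised use, did not move as 1 group. In NRAS-off tumours 2 fell, 2 rose and 2 did not pass at the brightest probe set. Of all genes 27.1% fell and 31.5% rose, so both counts are near the background. Rpl39l, a testis-enriched paralogue of Rpl39, read 1019 to 1584 (median 1277) in NRAS-off tumours, 1386 to 1779 (median 1664) in MEK inhibitor tumours and 1439 to 2301 (median 2044) in vehicle tumours. The NRAS-off range ran into the vehicle range at its lower end, and the log2 change was -0.64 ± 0.12 (adjusted p = 9.33e-05). Rpl22l1, the paralogue of Rpl22, fell by a log2 change of -0.27 ± 0.09 (adjusted p = 0.0154), also with overlap. Rps27l, the paralogue of Rps27, gave -0.13, 0.16 and 0.11 on 3 probe sets in NRAS-off tumours, of which the second passed (adjusted p = 0.0436). That call ended when any of 8 single tumours was left out (adjusted p up to 0.102).

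Rpl7l1, the paralogue of Rpl7, fell on all 3 probe sets in MEK inhibitor tumours, by log2 changes of -0.27 ± 0.06, -0.45 ± 0.06 and -0.50 ± 0.08. In NRAS-off tumours its 2 dimmer probe sets fell, by log2 changes of -0.43 ± 0.06 and -0.37 ± 0.08, and the brightest did not pass (95% interval -0.21 to 0.03). Its brightest probe set read 1002 to 1062 (median 1020.5) in NRAS-off tumours, 812 to 1027 (median 897) in MEK inhibitor tumours and 995 to 1159.7 (median 1113) in vehicle tumours, with all groups overlapping.

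Rpl3l and Rps4l were higher in NRAS-off tumours. Rpl3l, the form of Rpl3 used in heart and skeletal muscle, read 105 to 299 (median 159) in NRAS-off tumours, 56.2 to 206 (median 83.9) in MEK inhibitor tumours and 31.8 to 55.2 (median 42.3) in vehicle tumours. Both treated groups lay above all vehicle tumours and overlapped each other. Its log2 changes were 1.73 ± 0.25 in NRAS-off and 0.85 ± 0.25 in MEK inhibitor tumours (adjusted p = 8.92e-06 and 0.0106). The summed intensity of 12 skeletal muscle markers moved with it, at 35369 to 59163 in NRAS-off tumours, 21347 to 49634 in MEK inhibitor tumours and 4081.4 to 19137 in vehicle tumours. All 12 rose in both treated groups, beside 31.5% of all genes in NRAS-off and 23.8% in MEK inhibitor tumours. The part of muscle tissue in the Rpl3l change was not tested. Rps4l, a paralogue of Rps4x, read 408 to 820 (median 605) in NRAS-off tumours, 300.3 to 378 (median 322) in MEK inhibitor tumours and 289 to 481 (median 307) in vehicle tumours. NRAS-off tumours lay above all MEK inhibitor tumours and overlapped only vehicle replicate 6, which was the highest vehicle tumour. The log2 change of Rps4l was 0.80 ± 0.14 in NRAS-off tumours (adjusted p = 4.89e-05), and in MEK inhibitor tumours it did not pass (95% interval -0.30 to 0.28).

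**Figure D3:**
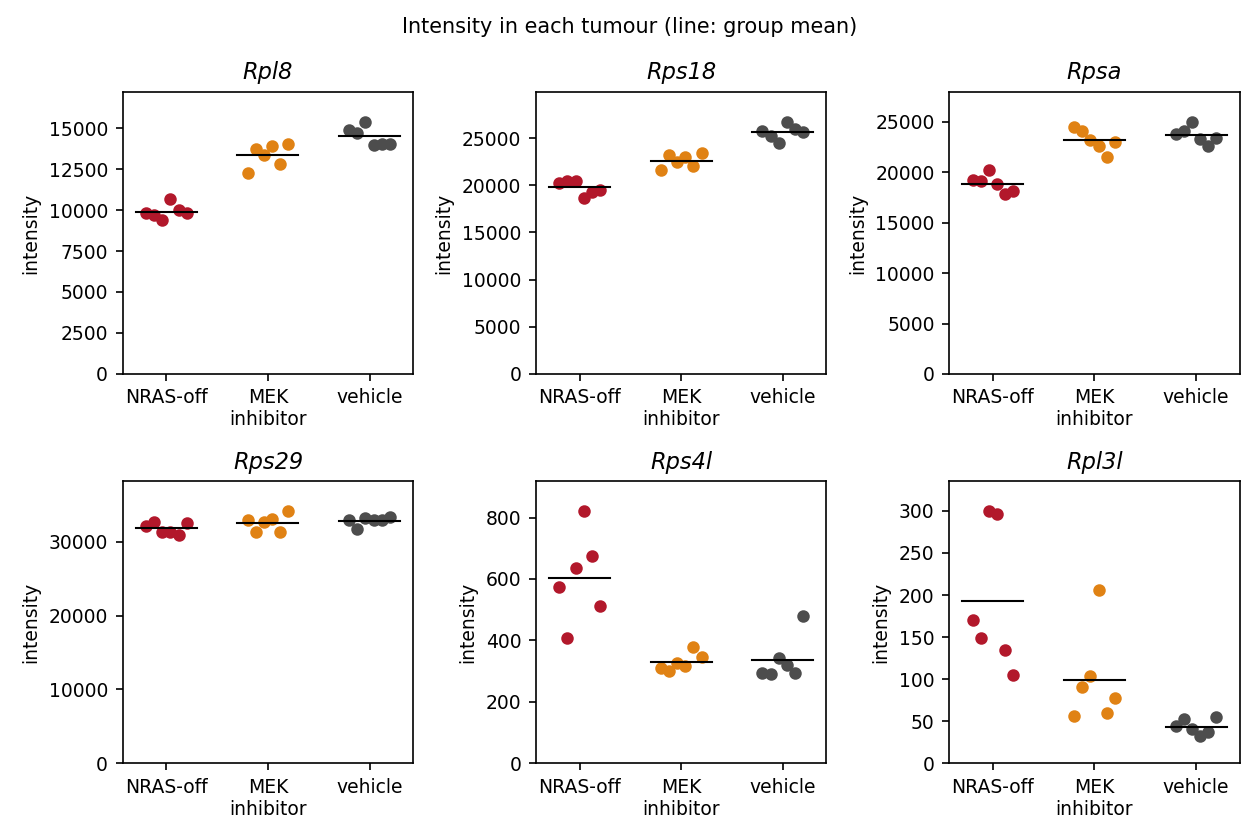
Intensity (vertical axis, linear, from 0) in each of 6 NRAS-off, 6 MEK inhibitor and 6 vehicle tumours for the brightest probe sets of Rpl8, Rps18, Rpsa, Rps29, Rps4l and Rpl3l, with lines at group means. Rps18 forms 3 separate groups, and Rpl8 and Rpsa are lowest in NRAS-off tumours, with overlap of the other 2 groups. Rps29 overlaps throughout, and Rps4l and Rpl3l are highest in NRAS-off tumours.

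Under the MEK inhibitor fewer ribosomal protein transcripts passed and the sizes were smaller. Of 101 probe sets 33 fell (32.7%) and 1 rose against vehicle, beside 20.1% of all tested probe sets that fell and 20.6% that rose (40.7% in either direction), with a median log2 change of -0.08 (-5.19%). By genes 12 of 48 fell and 1, Rpl3l, rose, while 20.5% of all genes fell and 23.8% rose. Of the 950 other bright probe sets 24.4% fell and 29.6% rose in this comparison. The share of genes whose fall passed is thus near the background. By value alone, 44 of the 48 genes had a log2 change below 0, beside 7236 of 15005 genes in all. That count was not tested, and the genes share the same arrays. In 15 probe sets every MEK inhibitor tumour lay below every vehicle tumour and the fall passed, against 11.2% of all tested probe sets. By the mean of all probe sets of a gene 25 genes fell, and the share over all genes in that setting is not given here. With centring on other bright probe sets 22 genes fell, and of all tested probe sets 23.4% fell. The 12 genes were Rpl6, Rpl12, Rpl19 and Rpl27 of the large subunit, Rps3, Rps6, Rps9, Rps18, Rps19, Rps25 and Rps27 of the small subunit, and Rpl7l1.

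The members were also counted by signal and probe design in MEK inhibitor tumours. Of 33 members with a mean log2 signal under 12, 19 fell. Of 68 at or above it, 14 fell, a share near the 20.1% of all tested probe sets and the 24.4% of other bright ones. By probe design, 17 of 30 probe sets with the plain ending (probes meant to read 1 transcript) fell, against 5 of 40 with the ending for probes that may also read similar sequences. In NRAS-off tumours 23 of those 30 and 32 of those 40 fell, beside 26.7% of all tested probe sets. Most plain-ending members had a signal under 12 and most of the second kind lay above it, so signal and design cannot be told apart here. Shares by ending over all probe sets were not counted. Ribosomal protein genes have many processed pseudogenes of near-identical sequence, so reads from such copies cannot be separated on the probe sets of the second kind.

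The treated groups differed from each other in 63 of the members. In NRAS-off minus MEK inhibitor 57 of 101 probe sets fell (56.4%) and 6 rose, beside 20% of all tested probe sets that fell and 20.6% that rose (40.5% in either direction), with a median log2 difference of -0.14. By genes 30 of 48 fell and 5 rose, against 21.9% and 23.8% of all genes, and of other bright probe sets 34.1% fell and 23.1% rose. In 36 probe sets every NRAS-off tumour lay below every MEK inhibitor tumour and the fall passed, which held for 11.3% of all tested probe sets. The largest falls by gene were those of Rpl37, Rpl14 and Rpl27a, a large subunit protein. Rpl27a read 564 to 674 (median 625) in NRAS-off tumours, 706 to 1036 (median 840) in MEK inhibitor tumours and 631 to 1020.5 (median 743) in vehicle tumours. NRAS-off tumours lay below all MEK inhibitor tumours with a log2 difference of -0.48 ± 0.10 (adjusted p = 0.000574). The 5 genes higher in NRAS-off than in MEK inhibitor tumours were Rpl3l (0.87 ± 0.25), Rps4l (0.81 ± 0.14), Rpl12, Rpl7l1 (0.18 ± 0.06) and Rps27 (0.13 ± 0.05). The Rps27 call ended when any of 10 single tumours was left out (adjusted p up to 0.0808). With cyclic loess 24 of the 101 probe sets and 11 of the 48 genes fell in this comparison (median -0.05). Of all tested probe sets 19.3% fell with that setting, so the share of members that fell is then near the background. With centring on other bright probe sets 36 probe sets and 15 genes fell, beside 16.3% of all tested probe sets.

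Averaged over the 101 tested probe sets, the mean log2 signal per tumour was 11.96 ± 0.03 in NRAS-off, 12.10 ± 0.04 in MEK inhibitor and 12.22 ± 0.02 in vehicle tumours (SD, n = 6 each). The NRAS-off tumours ranged from 11.92 to 12.01, the MEK inhibitor tumours from 12.03 to 12.17 and the vehicle tumours from 12.20 to 12.25. The groups did not overlap in this mean. For large subunit probe sets alone the group means were 12.34, 12.54 and 12.66, and for small subunit probe sets 11.86, 12.01 and 12.13, in the order NRAS-off, MEK inhibitor, vehicle. These means describe the chosen members and carry no test.

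**Figure D4:**
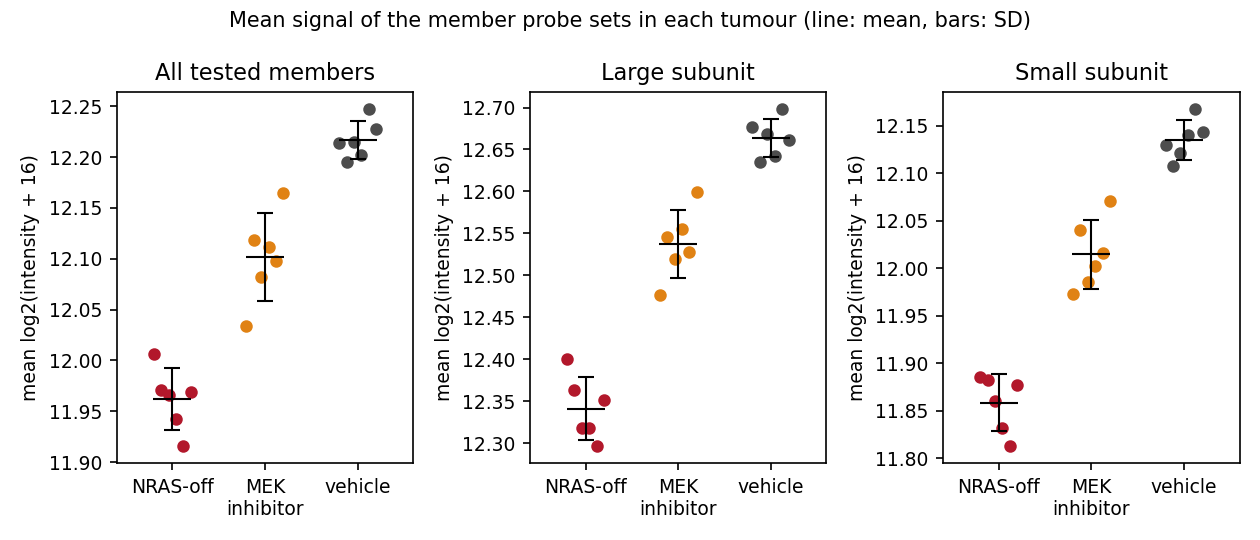
Mean log2(intensity + 16) per tumour (vertical axis, not from 0) over all tested members, large subunit and small subunit probe sets, for 6 NRAS-off, 6 MEK inhibitor and 6 vehicle tumours, with group mean and SD. In the first panel NRAS-off tumours range from 11.92 to 12.01, MEK inhibitor tumours from 12.03 to 12.17 and vehicle tumours from 12.20 to 12.25, and the order is the same in both subunits.

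Probe sets of the same gene did not always agree in size. Of 21 genes with 2 or more tested probe sets, 11 fell on all of them in NRAS-off tumours, 8 fell on some and did not pass on others, and in 7 the log2 changes were more than 0.3 apart. Rpl13a, which in human monocytes also silences inflammatory messenger RNAs, had the widest spread. Its 4 probe sets changed by -0.10 ± 0.04, -0.21 ± 0.04, -0.89 ± 0.05 and -1.35 ± 0.08 from the brightest to the dimmest in NRAS-off tumours, and all 4 passed. The call of the brightest ended when any of 6 single tumours was left out (adjusted p up to 0.0774), and with cyclic loess its value was 0.03. The dimmest read 1470.2 to 1644 (median 1609) in NRAS-off tumours, 2486 to 3324 (median 3153) in MEK inhibitor tumours and 3301 to 4617 (median 4262) in vehicle tumours, and the NRAS-off tumours lay below all others. The brightest read 24215 to 26537 (median 25503) in NRAS-off tumours, 26219 to 27046 (median 26296) in MEK inhibitor tumours and 26331 to 28576 (median 27094) in vehicle tumours, and all groups overlapped.

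Similar spreads were seen in Rps3, Rps20 and Rps24. Rps3, which lies at the entry of the messenger RNA channel, fell by a log2 change of -0.28 ± 0.05 on its bright probe set and -0.85 ± 0.07 on a dimmer one. Its dimmest, which read only 28.5 to 60.8 over all tumours, did not pass (0.10, 95% interval -0.11 to 0.31). Rps20 fell by log2 changes of -0.14 ± 0.05 and -0.13 ± 0.05 on bright probe sets and by -0.84 ± 0.10 and -0.85 ± 0.10 on dim ones. In Rps24 the change was -0.14 ± 0.04 on the brightest probe set and -0.55 ± 0.08 on one with the plain ending. In Rps18 the direction of the spread was the other way, with -0.53 ± 0.06 on a bright probe set and -0.14 ± 0.05 and -0.11 ± 0.05 on the 2 dimmest, whose calls ended when any of 5 and of 11 single tumours was left out. In Rps10, all 6 probe sets fell in NRAS-off tumours, by log2 changes between -0.25 and -0.50.

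Rpl35, beside the tunnel exit, was the single gene with probe sets called in opposite directions between the treated groups. Its 4 brightest probe sets fell in NRAS-off minus MEK inhibitor, by log2 changes between -0.15 and -0.17, and the fifth did not pass. The calls of the brightest and the fourth ended when any of 3 and of 4 single tumours was left out (adjusted p up to 0.0608 and 0.0704). The dimmest rose by 0.24 ± 0.07 (adjusted p = 0.0125), reading 33.1 to 45.6 (median 40.7) in NRAS-off, 26.4 to 35.1 (median 31.6) in MEK inhibitor and 33 to 47.9 (median 42.4) in vehicle tumours. Over the 91 probe sets that are no paralogues, mean signal and the NRAS-off change correlated at r = 0.242 (rho = 0.383), and mean signal and the MEK inhibitor change at r = 0.355 (rho = 0.343). These are descriptions across probe sets that share the same arrays, and several share a gene.

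**Figure D5:**
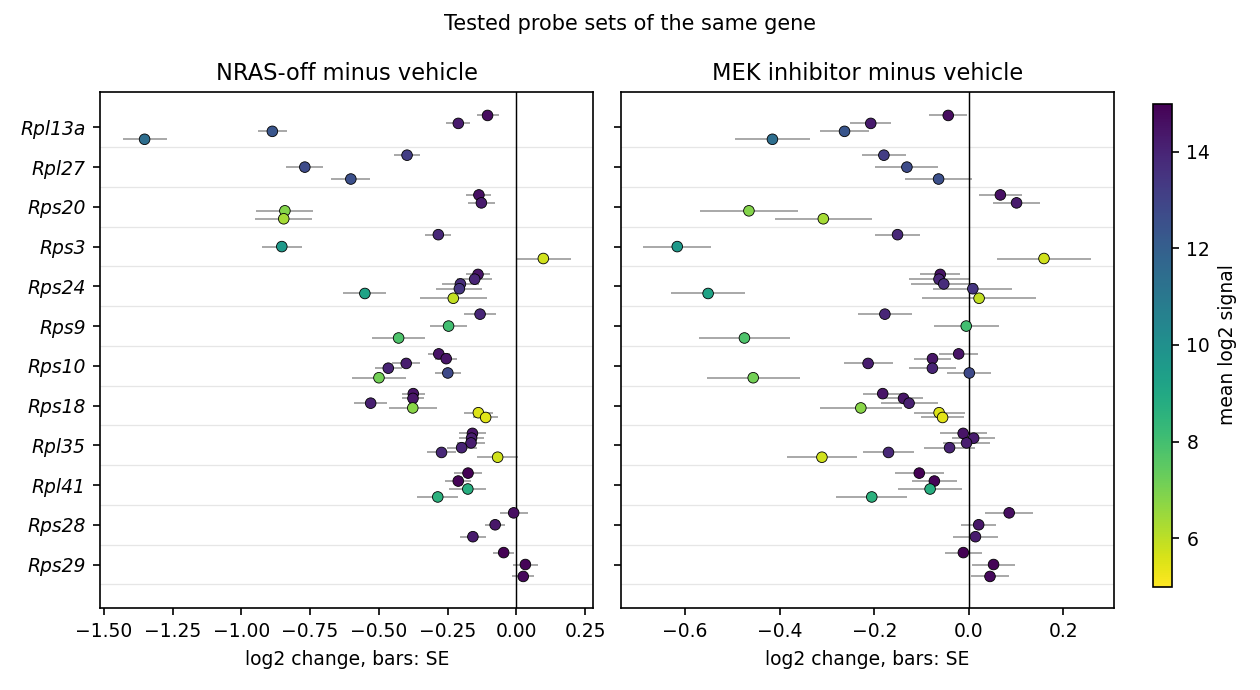
Log2 change (horizontal axes, bars SE) of each tested probe set of 12 genes in NRAS-off (left) and MEK inhibitor tumours (right) against vehicle, coloured by mean log2 signal. Rpl13a runs from -0.10 to -1.35 in NRAS-off tumours, and Rps29 lies near 0 on all 3 probe sets in both comparisons.

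Other genes of the pathway were counted list by list. Of 25 nucleolar ribosome assembly genes, all fell in NRAS-off and 24 in MEK inhibitor tumours against vehicle, with median log2 changes of -0.68 and -0.65, beside 27.1% and 20.5% of all genes. Between the treated groups 4 of these 25 rose and 4 fell, beside 23.8% and 21.9% of all genes, so neither count is above the background. Nop58 and Fbl, core proteins of the particles that methylate ribosomal RNA, changed by -1.07 ± 0.09 and -1.03 ± 0.05 in NRAS-off tumours and by log2 changes of -0.82 ± 0.09 and -0.65 ± 0.05 in MEK inhibitor tumours. Rrs1, which brings 5S ribosomal RNA into the large subunit, changed by -1.07 ± 0.10 and -0.86 ± 0.10. Under the MEK inhibitor Rrp12, Gar1 and Tsr1 fell most, by log2 changes of -0.99 ± 0.08, -0.94 ± 0.06 and -0.92 ± 0.06, where their changes in NRAS-off tumours were -0.85 ± 0.08, -0.71 ± 0.06 and -0.34 ± 0.06. Tsr1, a small subunit assembly factor, and Gnl3, nucleostemin, were higher in NRAS-off than in MEK inhibitor tumours by 0.58 ± 0.06 and 0.52 ± 0.06, and Ncl, nucleolin, was lower by a log2 change of -0.46 ± 0.05.

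The other messenger RNAs with a TOP start (elongation factors, initiation factor subunits and similar genes) were counted as a group. Of 13 tested, 11 fell in NRAS-off tumours (median -0.37) and 4 in MEK inhibitor tumours (median -0.07), beside 27.1% and 20.5% of all genes, so the second count is near the background. Between the treated groups 10 of 13 were lower in NRAS-off, beside 21.9% of all genes. Nap1l1, a histone chaperone, changed by -0.86 ± 0.08 in NRAS-off tumours (adjusted p = 2.8e-08) and did not pass in MEK inhibitor tumours (95% interval -0.03 to 0.31). Eef1d, a subunit of the elongation factor 1 exchange complex, fell by log2 changes of -0.52 ± 0.07 and -0.25 ± 0.07 in NRAS-off and MEK inhibitor tumours, and Npm1, a nucleolar chaperone, by a log2 change of -0.45 ± 0.06 in NRAS-off tumours, with no call in MEK inhibitor tumours (-0.05, 95% interval -0.17 to 0.07). Eef1a1 and Tpt1 did not pass in either. Fau, whose product is cut into a ubiquitin-like protein and the ribosomal protein Rps30, fell by a log2 change of -0.20 ± 0.04 in NRAS-off and -0.14 ± 0.04 in MEK inhibitor tumours.

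Of 13 genes that carry ribosomal proteins into the nucleus or guard them before assembly, 9 fell and 1, Tnpo1, rose in NRAS-off tumours (median -0.39), beside 27.1% of all genes that fell and 31.5% that rose. In MEK inhibitor tumours 9 of the 13 fell and 0 rose (median -0.35), beside 20.5% and 23.8% of all genes. Bccip, Pdcd2 and Pdcd2l did not pass in NRAS-off tumours, and Ipo4, Ipo9, Kpnb1 and Tnpo1 did not pass in MEK inhibitor tumours. Ipo5 and Ipo7, importins for ribosomal proteins, changed by -0.93 ± 0.08 and -0.92 ± 0.06 in NRAS-off tumours and by log2 changes of -0.42 ± 0.08 and -0.66 ± 0.06 in MEK inhibitor tumours. Grwd1, a chaperone of Rpl3, changed by -0.85 ± 0.06 and -0.87 ± 0.06. Ltv1, an assembly factor of the small subunit, changed by -0.43 ± 0.07 in NRAS-off and -0.83 ± 0.07 in MEK inhibitor tumours. Between the treated groups 5 of the 13 were higher in NRAS-off, among them Ltv1, Tsr2 and Bccip (log2 differences 0.40 ± 0.07, 0.27 ± 0.07 and 0.25 ± 0.06), and 4 were lower. Of all genes 23.8% were higher and 21.9% lower in this comparison. Kpnb1, importin beta, and Ipo9 were lower in NRAS-off than in MEK inhibitor tumours by log2 changes of -0.78 ± 0.10 and -0.48 ± 0.05.

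Among 13 tested genes that control TOP translation or phosphorylate Rps6, 5 rose and 6 fell in NRAS-off tumours, beside 31.5% and 27.1% of all genes. In MEK inhibitor tumours 3 rose and 6 fell, beside 23.8% and 20.5% of all genes, and the rises are near the background in both. Eif4ebp1 and Eif4ebp2, inhibitors of the cap-binding protein eIF4E, moved apart in NRAS-off tumours, at -0.99 ± 0.07 and 1.28 ± 0.10. In MEK inhibitor tumours Eif4ebp1 fell by a log2 change of -0.81 ± 0.07 and Eif4ebp2 did not pass (0.12, 95% interval -0.09 to 0.32). Mknk1, a kinase of eIF4E, rose in both, by 1.08 ± 0.08 in NRAS-off and 0.39 ± 0.08 in MEK inhibitor tumours. Larp1 changed by -0.53 ± 0.06 in NRAS-off and -0.45 ± 0.06 in MEK inhibitor tumours. Eif4e itself changed by -0.53 ± 0.08 and -0.63 ± 0.08, and Larp4 by log2 changes of -0.38 ± 0.05 and -0.55 ± 0.05, in the same order. Pdcd4, an inhibitor of the helicase eIF4A, was higher in NRAS-off than in MEK inhibitor tumours by 0.59 ± 0.10.

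Of 11 genes that modify ribosomal proteins or respond to ribosome stress, 3 rose and 6 fell in each treated group, while of all genes 31.5% rose and 27.1% fell in NRAS-off and 23.8% and 20.5% in MEK inhibitor tumours. The rises are near the background. Cdkn1a, a cell cycle inhibitor induced by p53, changed by -1.05 ± 0.07 in NRAS-off and -0.44 ± 0.07 in MEK inhibitor tumours. Usp10, a deubiquitinase of small subunit proteins, changed by -0.42 ± 0.07 and -0.38 ± 0.07 in the same order. Huwe1, a ubiquitin ligase for unassembled ribosomal proteins, changed by -0.34 ± 0.07 in NRAS-off tumours and did not pass in MEK inhibitor tumours (95% interval -0.13 to 0.16). Mdm4, a p53 inhibitor, rose in both, by 0.27 ± 0.06 in NRAS-off and 0.46 ± 0.06 in MEK inhibitor tumours. Riox1, a hydroxylase of Rpl8, changed by -0.20 ± 0.06 in NRAS-off and -0.46 ± 0.06 in MEK inhibitor tumours. Riox2, a hydroxylase of Rpl27a, was higher in NRAS-off than in MEK inhibitor tumours by 0.39 ± 0.08.

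The mitochondrial ribosomal protein genes serve a separate ribosome. Of 76 tested, 47 fell and 6 rose in NRAS-off tumours (median -0.21), and 40 fell and 0 rose in MEK inhibitor tumours (median -0.17). Of all genes 27.1% fell and 31.5% rose in NRAS-off, and 20.5% and 23.8% in MEK inhibitor tumours. In NRAS-off minus MEK inhibitor 25 of them fell and 10 rose (median -0.03), while 30 of the 48 cytosolic genes fell (median -0.13). Of all genes 21.9% fell and 23.8% rose in that comparison. Whether the cytosolic and mitochondrial genes differ was not tested. Mrps10 had the largest fall in NRAS-off tumours and changed by -0.96 ± 0.08 there and -0.64 ± 0.08 in MEK inhibitor tumours. Mrps18b had the largest fall in MEK inhibitor tumours and changed by -0.48 ± 0.05 in NRAS-off and -0.67 ± 0.05 in MEK inhibitor tumours.

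Promoter motifs were set beside the changes of the 37 matched core genes (those that are no paralogues). The 23 core genes with a TOP start within 10 bases had a median log2 change of -0.23 in NRAS-off tumours, and the 14 without one -0.21. The motif CCGGAAGT, the core bound by ETS factors, was searched on both strands in the whole window of 250 bases before to 50 after the start. It was present in 10 of 43 member genes (23.3%), against 4.31% of all genes. The 9 core genes with it had a median of -0.33 in NRAS-off and -0.10 in MEK inhibitor tumours, and the 28 without it -0.21 and -0.08. Stretches of 30 bases around the match are shown for 5 of these genes, with capitals for the match on either strand.
Rps18 (chr17:33955804-33955833, minus strand): agaaggccgaaCCGGAAGTtatagctccgg
Rpl35 (chr2:39005241-39005270, minus strand): aggaaggcaggACTTCCGGgaagcggaggg
Rps6 (chr4:86857440-86857469, minus strand): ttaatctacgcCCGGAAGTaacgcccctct
Rpsa (chr9:120127566-120127595, plus strand): tcgccccagctACTTCCGGcctggggtctg
Rpl11 (chr4:136053369-136053398, minus strand): aggccacggggCCGGAAGTctccctctctc
The E-box CACGTG, bound by MYC and MAX and the same on both strands, was present in 4 of 43 member genes (9.3%) and 8.09% of all genes. The motif AAGATGGC, bound by YY1 and searched on both strands, was present in 4 of 43 (9.3%) and 3.19% of all genes. None of these motifs contains another, a match is a description of the sequence, and no test of motif against change was made.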

How the data were processed

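Total RNA of 18 tumours was read on one-colour Affymetrix arrays, 1 array per tumour, from 10 ug RNA of a tumour piece of about 50 mg, per the labels' protocols. The deposited table holds the authors' processed intensity values for 45037 probe sets, all positive (7.37 to 44480), and was read as linear because array medians were 72.3 to 78.5. MAS5 and RMA are both named, with no version, per the submitters' processing notes, and which of them made this table is not given there, so the scale of fold changes rests on that reading. No columns of other samples were present. The labels give no batch or date, and precision is limited by the 18 arrays.

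Probe sets were named from the platform annotation: 34945 had 1 symbol, 932 several and 9160 none. Values were transformed to log2(intensity + 16), which understates changes of dim probe sets. A filter at the lowest 25% of mean signals (log2 5.30, intensity 23.5) left 33777 probe sets. One limma fit (version 3.58.1, R 4.3.3) held all 18 arrays (15 residual and 4.12 prior degrees of freedom), with Benjamini-Hochberg adjustment within each comparison and a threshold of 0.05. Errors are SE of the fit unless called SD, and intervals are 95% intervals of the fit. Genes were read at their probe set with the highest mean. The fit was checked on simulated data. Replicate numbers were not taken as pairs: same-numbered tumours' deviations correlated at -0.121 to 0.339, and 8 of 18 arrays correlated best with their own number.

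Named genes are the 6 largest rises and falls per comparison, those past 2-fold, 16 member genes always named (8 more on that list have no member probe set), genes with opposite calls and, of each companion list, up to 3 with the largest change. Other genes named were chosen after their values were seen. The members, gene lists and marker lists were chosen with earlier results of these data known. Promoter sequences and annotated starts are RefSeq's. No genome was used.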

Additional observations from a re-analysis of the deposited data

Results flagged for a closer look

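In 147 groups of 6 tumours (the probe sets of named members and the per-tumour means), 11 held a tumour far from the other 5, with a gap to the nearest other, as a share of the group's range, above Dixon's critical value for 6 samples. Chance flags about 1 in 20 groups. No explanation was weighed.

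Among NRAS-off tumours, replicate 3 read 21850 for Rplp2, against 22630 to 23100 in the others. Among MEK inhibitor tumours, replicate 1 read 21220 for Rplp0, against 24240 to 26020, and 2486 for the dimmest Rpl13a probe set, against 3008 to 3324. MEK inhibitor replicate 2 read 873.6 for Rps25, against 744.6 to 788.4. MEK inhibitor replicate 4 read 18410 for the fourth brightest Rpl35 probe set, against 16920 to 17450, and replicate 6 read 177 for Rps27, against 155.7 to 163.1.

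Among vehicle tumours, replicate 4 was flagged on 3 probe sets. It read 21740 for Rps4x, against 25520 to 26790, 18550 for the fifth brightest Rpl35 probe set, against 16050 to 16610, and 38.85 for a dim Rps18 probe set, against 30.18 to 32.39. Vehicle replicate 5 read 1959 for Rpl37, against 1452 to 1509, and vehicle replicate 6 read 481 for Rps4l, against 288.8 to 343.6. Without MEK inhibitor replicate 1, Rplp0 differed by -0.12 on the log2 scale in NRAS-off minus MEK inhibitor (adjusted p = 0.0263), where all 18 tumours gave -0.08 (adjusted p = 0.184).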

How the results depend on the processing

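The calls with all tumours were 80 falls and 3 rises of probe sets in NRAS-off minus vehicle, 33 and 1 in MEK inhibitor minus vehicle, and 57 and 6 in NRAS-off minus MEK inhibitor, with 38 and 2, 12 and 1, and 30 and 5 for genes. Leaving out each tumour in turn gave, in NRAS-off minus vehicle, 75 to 82 probe sets that fell, 2 to 3 that rose, 37 to 39 genes that fell, 2 that rose, and medians of -0.239 to -0.209. In MEK inhibitor minus vehicle it gave 28 to 38 and 1 to 2 probe sets (2 rose without vehicle replicate 3 or 5), 10 to 17 and 1 to 2 genes, and medians of -0.0936 to -0.0669. In NRAS-off minus MEK inhibitor it gave 44 to 59 and 5 to 6 probe sets, 21 to 31 and 4 to 5 genes, and medians of -0.151 to -0.119. Medians in NRAS-off minus vehicle were -0.262 with median centring, -0.193 with quantile normalization, -0.127 with cyclic loess and -0.326 over plain-ending probe sets alone, where fewer probe sets were counted (23 probe sets and 20 genes fell). Cyclic loess gave 53 falls and 7 rises of probe sets and 23 falls of genes, and a limit of 1.5-fold gave 11 and 4 falls. In MEK inhibitor minus vehicle the genes that fell were 19 with a pseudocount of 64, 19 with a trended robust prior, 25 by the mean of a gene's probe sets, 22 with centring on other bright probe sets (median -0.112), 7 at adjusted p under 0.01 and 1 past 1.5-fold. Probe sets that fell were 17 over plain endings (median -0.192), 19 at adjusted p under 0.01 and 2 past 1.5-fold, and at adjusted p under 0.01 there were 0 rises of probe sets and 0 of genes with limma (1 probe set rose at adjusted p under 0.05). In NRAS-off minus MEK inhibitor, cyclic loess gave 24 probe sets and 11 genes that fell (median -0.0539), centring on bright probe sets 36 and 15 (median -0.0986), plain endings 11 and 11 (median -0.0777), adjusted p under 0.01 35 and 15 with 2 rises each, and 1.5-fold 3 and 0 with 2 rises each. Median centring gave 3 genes that rose there. Cyclic loess and bright centring were chosen after seeing the data, and the cause of these shifts was not tested beyond the smaller sets counted. Of all tested probe sets 26.4%, 20.4% and 19.3% fell with cyclic loess, in the 3 comparisons in the order above. With bright centring 26.1%, 23.4% and 16.3% of them fell. Under cyclic loess the brightest Rpl13a probe set turned to 0.028 in NRAS-off minus vehicle (adjusted p = 0.572) and the next one to 0.104 in NRAS-off minus MEK inhibitor (adjusted p = 0.0426). Of the named single results over all alternatives, 102, 41 and 112 lost their call and 1, 22 and 11 gained one in the 3 comparisons in the order above, and 1428, 1469 and 1408 stayed on their side. Same-numbered tumours shared only a number, and a replicate block gave 76 falls and 2 rises of probe sets (37 and 2 genes), 28 and 1 (11 and 1), and 49 and 6 (23 and 5), with medians of -0.229, -0.0769 and -0.139. Single tumours ended 12 named calls, with the replicates given after each group. The dimmest Rpl22 probe set lost its call in MEK inhibitor minus vehicle without MEK inhibitor 1/3, vehicle 1/4/5 (adjusted p up to 0.0903). The fourth brightest Rps18 probe set lost its call in MEK inhibitor minus vehicle without MEK inhibitor 1/3/4/5, vehicle 1/3/5/6 (adjusted p up to 0.107). The brightest Rpl22 probe set lost its call in NRAS-off minus MEK inhibitor without NRAS-off 2/4/5, MEK inhibitor 1/2/3/5/6 (adjusted p up to 0.0863). Rpl22l1 lost its call in NRAS-off minus MEK inhibitor without NRAS-off 1/2/4/5, MEK inhibitor 2/3/4/5/6 (adjusted p up to 0.0968). The brightest Rpl35 probe set lost its call in NRAS-off minus MEK inhibitor without NRAS-off 3/4, MEK inhibitor 4 (adjusted p up to 0.0608). The fourth brightest Rpl35 probe set lost its call in NRAS-off minus MEK inhibitor without NRAS-off 3/4/5, MEK inhibitor 4 (adjusted p up to 0.0704). Rpl6 lost its call in NRAS-off minus MEK inhibitor without NRAS-off 4/5/6, MEK inhibitor 2/3/4/6 (adjusted p up to 0.0895). Rps27 lost its call in NRAS-off minus MEK inhibitor without NRAS-off 1/2/3/4/6, MEK inhibitor 1/2/3/4/5 (adjusted p up to 0.0808). The brightest Rpl13a probe set lost its call in NRAS-off minus vehicle without NRAS-off 2/4/5, vehicle 1/3/5 (adjusted p up to 0.0774). The fifth brightest Rps18 probe set lost its call in NRAS-off minus vehicle without NRAS-off 1/4/5/6, vehicle 4 (adjusted p up to 0.0967). The sixth brightest Rps18 probe set lost its call in NRAS-off minus vehicle without NRAS-off 3/4/5/6, MEK inhibitor 2/3/5, vehicle 2/4/5/6 (adjusted p up to 0.104). The second brightest Rps27l probe set lost its call in NRAS-off minus vehicle without NRAS-off 1/3/5/6, MEK inhibitor 3, vehicle 1/3/4 (adjusted p up to 0.102). Fits over genes give no probe set counts. Depth is not given by intensities, and probe sets under the filter were not tested.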
